A study of Mus musculus with 6 samples.

Results

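The genes described are 9, of 12393 with a probe set of their own on both array designs, and encode liver enzymes of the methionine cycle and of small-molecule methylation: Mat1a, Gnmt, Nnmt, Pemt, Gamt, Ahcy, Bhmt, Cbs and Cth. The probe sets taken were all those that the platform annotation assigns to exactly 1 gene symbol, among these 9, which gave 10 of the 22626 probe sets shared by both array designs, with Cbs holding 2 and each other gene 1. The larger design held no further probe set of these genes. All 10 were above the detection floor, a centred signal of 155.3, on all 6 arrays, so none was lost to the filter on low values that left 14533 probe sets for testing.

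The samples are livers of C57BL/6J mice, an inbred strain in which fat-rich food brings obesity, fed a high-fat diet (high-fat) or a control diet (control) for 2, 4 or 10 weeks, with 1 Affymetrix array for each diet and week. Every group shares the strain and the tissue, and no other genotype or agent is named. The labels do not give the sex or age of the mice, the composition of the diets, the hour of collection or whether the RNA of several mice was pooled. Week 4 was run on a larger array design than weeks 2 and 10 and was scaled in a table of their own, so diets were compared within a week, and levels were set across time only between weeks 2 and 10. All 10 measured hepatocyte markers, among them albumin (Alb) and transthyretin (Ttr), were above the floor on all 6 arrays.

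Methionine is activated to S-adenosylmethionine, the methyl donor of most methylation reactions, and the liver carries out a large part of this turnover. Each transfer leaves S-adenosylhomocysteine, which is hydrolysed to homocysteine. Homocysteine is either methylated back to methionine, in liver partly with betaine as donor, or drained through cystathionine to cysteine.

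Nnmt carried the largest difference between the diets. Its signal on the high-fat array was 68.7% of that on the control array at week 2, 37.1% at week 4 and 18.3% at week 10. Cth, Gnmt, Ahcy and Bhmt were lower by 1.70-fold to 2.36-fold at weeks 4 and 10, while both Cbs probe sets, Pemt and Gamt lay nearer to the control. None of the 10 passed the test over the 3 weeks, where 0.0138% of all probe sets tested did, and at week 4 other probe sets as bright as Mat1a, Gnmt, Bhmt and Ahcy were also lower on the high-fat array.

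The regions before the starts of Gnmt, Bhmt and Ahcy are shown because these members had similar differences at weeks 4 and 10 and have an entry in the RefSeq promoter table of build GRCm38.p6, which holds 6 of the 9 genes. Nnmt, Mat1a and Cth have none there. Each sequence is the 250 bases before the annotated start, all on the minus strand, at chr17:46729166-46729415 for Gnmt, chr13:93637759-93638008 for Bhmt and chr2:155074498-155074747 for Ahcy. Capitals mark matches on either strand to AGGTCA (a half-site of nuclear receptors), CCAAT (the CCAAT box), TATAA (as in TATA boxes), CACGTG (an E-box) or GGGCGG (a GC box).
Gnmt: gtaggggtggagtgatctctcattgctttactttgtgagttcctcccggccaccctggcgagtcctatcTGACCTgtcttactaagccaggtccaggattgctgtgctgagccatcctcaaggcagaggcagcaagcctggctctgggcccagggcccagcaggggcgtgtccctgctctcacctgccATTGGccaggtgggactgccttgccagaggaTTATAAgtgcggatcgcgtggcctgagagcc
Bhmt: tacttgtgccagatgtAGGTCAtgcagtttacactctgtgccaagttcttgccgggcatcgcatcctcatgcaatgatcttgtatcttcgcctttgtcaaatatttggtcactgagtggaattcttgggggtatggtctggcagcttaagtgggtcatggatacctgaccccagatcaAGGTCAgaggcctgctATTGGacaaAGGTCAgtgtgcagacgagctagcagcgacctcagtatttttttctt
Ahcy: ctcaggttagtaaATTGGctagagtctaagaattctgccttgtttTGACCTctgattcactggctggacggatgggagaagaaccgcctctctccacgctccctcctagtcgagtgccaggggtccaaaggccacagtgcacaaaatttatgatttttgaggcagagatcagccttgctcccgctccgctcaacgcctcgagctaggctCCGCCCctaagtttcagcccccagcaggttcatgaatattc

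AGGTCA was found in all 3 of these sequences and in none of the other 4 entries (both starts of Pemt, and Cbs and Gamt). It occurs in 4607 of the 32841 RefSeq windows of the same length. Bhmt held 3 matches, the nearest beginning 47 bases before the start, while the single matches of Gnmt and Ahcy began 181 and 205 bases before it. CCAAT was found in all 3 and in 2 of the other 4 entries, against 33.9% of all windows. Gnmt had TATAA on both strands, overlapping, at 31 and 30 bases before the start (22.8% of windows), Ahcy had GGGCGG at 41 bases (32.7%), and CACGTG was in none of the 3 (6.0%). These matches describe the letters of the windows and say nothing of the factors that may bind there.

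**Figure D1:**
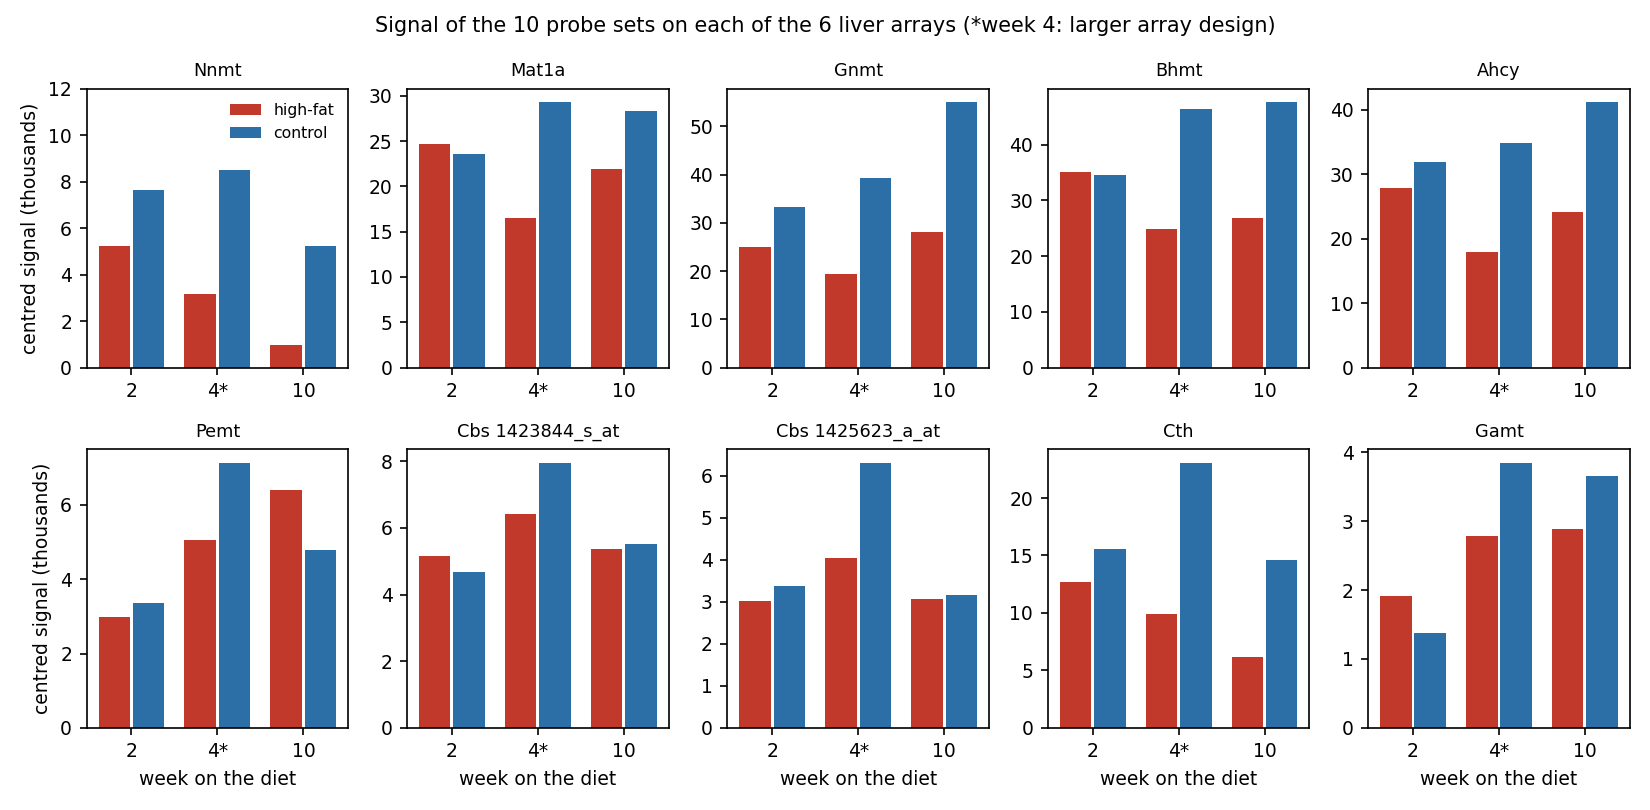
Bars give the centred signal (linear axis from 0 in the units printed on it, own scale in each panel) of each of the 10 probe sets on the high-fat (red, left) and control (blue, right) array of weeks 2, 4 and 10, with 1 array per bar and no error. The Nnmt bar of the high-fat array at week 10 stands at 957 against 5232 for control, and the week 4 arrays are of the larger design, so their heights are compared only with each other.

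The first step is the synthesis of S-adenosylmethionine. Mat1a encodes the methionine adenosyltransferase of adult liver. Its centred signal was 24721, 16460.5 and 21865 on the high-fat arrays of weeks 2, 4 and 10, against 23525, 29282 and 28294 on the control arrays. The diets were close at week 2, and the high-fat array was lower at weeks 4 and 10, with log2 differences of 0.07, -0.83 and -0.37. The mean difference was -0.38 with a standard error of 0.242 (limma adjusted p = 0.993).

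Among enzymes that consume the methyl donor, Nnmt encodes nicotinamide N-methyltransferase, which methylates nicotinamide to a product that is excreted. The centred signal of Nnmt was 5252, 3165 and 957 on the high-fat arrays of weeks 2, 4 and 10, against 7640.1, 8524 and 5232 on the control arrays. The high-fat array was lower at each week, by 1.45-fold, 2.69-fold and 5.46-fold, and the high-fat array of week 2 and the control array of week 10 had nearly the same signal. Log2 differences were therefore -0.54, -1.43 and -2.45. Of all probe sets tested, 2.37% were lower at all 3 weeks with a difference that widened from week to week as this one did.

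Over the 3 weeks Nnmt averaged 11.30 on the high-fat and 12.77 on the control arrays on the log2 scale, a mean difference of -1.47 with a standard error of 0.330 (3 arrays per diet). That is the lowest mean difference of the 9636 probe sets above the floor on all 6 arrays, but the spread between the weeks was wide and limma gave an adjusted p of 0.993. Members were chosen with earlier results of these data known, so their ranks are descriptions. At the single weeks it was the 1446th lowest of 13089 probe sets above the floor on both arrays at week 2, the 31st of 10728 at week 4 and the 9th of 13025 at week 10. With the values as deposited, limma called the difference (adjusted p = 0.00743), and so it did without week 2 (mean difference -1.94, adjusted p = 0.0104). As deposited, the control array of week 2 keeps a larger scale. The median of all week 2 differences was then -0.67, and Nnmt had -1.21 there. The fit without week 2 rests on weeks 4 and 10 alone, with 1 array per diet and week. Without week 10, where the control array stood apart on spiked-in controls, the mean difference was -0.98 (adjusted p = 0.197).

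The step between weeks 2 and 10 can be read within each diet, since both weeks are on the same design. Nnmt was lower at week 10 by 5.49-fold on the high-fat diet and by 1.46-fold on the control diet. Cth had a like order, 2.05-fold lower at week 10 on the high-fat diet and 1.07-fold on the control diet. Gnmt, Bhmt, Ahcy and Mat1a were higher at week 10 than at week 2 on the control arrays, by 0.73, 0.46, 0.37 and 0.27 on the log2 scale, and on the high-fat arrays their differences between the weeks were 0.16, -0.39, -0.21 and -0.18. The summed signal of the hepatocyte markers, which are also bright, was higher at week 10 too. It went from 375901 to 620836 on the control arrays and from 332083 to 478059 on the high-fat arrays. There is 1 array per diet and week, so none of these has a test.

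Gnmt encodes glycine N-methyltransferase, an abundant liver enzyme that passes surplus methyl groups to glycine. Its centred signal was 25052, 19463 and 28037 on the high-fat arrays, against 33236, 39269 and 55023 on the control arrays. The high-fat array was lower at all 3 weeks, and on the smaller design both high-fat arrays lay below both control arrays, as for 4 of the 10 members. The share of all probe sets with that order was 14%. Log2 differences were -0.41, -1.01 and -0.97, with a mean of -0.80 and a standard error of 0.229 (limma adjusted p = 0.993).

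Pemt makes phosphatidylcholine from phosphatidylethanolamine in hepatocytes, a route that supplies the surface lipid of lipoproteins. The centred signal of Pemt was 2981, 5061 and 6392 on the high-fat arrays, against 3361, 7138 and 4782 on the control arrays. Here the order of the diets turned, with the high-fat array lower at weeks 2 and 4 and higher at week 10 (log2 differences -0.17, -0.50 and 0.42). The mean difference of -0.08 was smaller than its standard error of 0.244.

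Gamt encodes guanidinoacetate N-methyltransferase, the last step of creatine synthesis. Its centred signal was 1916, 2784 and 2888 on the high-fat arrays, against 1370.1, 3851 and 3651 on the control arrays. The high-fat array was higher at week 2 and lower at weeks 4 and 10, with log2 differences of 0.48, -0.47 and -0.34, and with the values as deposited the sign at week 2 turns to -0.18. The mean difference was -0.11 with a standard error of 0.251.

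Downstream of every methyl transfer, Ahcy hydrolyses S-adenosylhomocysteine, a product inhibitor of methyltransferases. The centred signal of Ahcy was 27868, 17953 and 24177 on the high-fat arrays, against 31821, 34782 and 41122 on the control arrays. As for Gnmt, the high-fat array was lower at each week, and the 2 diets did not overlap on the smaller design. Log2 differences were -0.19, -0.95 and -0.77, with a mean of -0.64 and a standard error of 0.236 (limma adjusted p = 0.993).

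Bhmt returns homocysteine to methionine with betaine as methyl donor. Its centred signal was 35085, 24895 and 26866 on the high-fat arrays, against 34597, 46351 and 47580.2 on the control arrays. The diets were equal within 0.02 on the log2 scale at week 2, and the high-fat array was lower by 0.90 at week 4 and by 0.82 at week 10. The mean difference was -0.57 with a standard error of 0.250 (limma adjusted p = 0.993). Bhmt2, a close relative that uses another methyl donor, had log2 differences of 0.62, -0.11 and 0.25 on its brightest probe set and 0.01, -0.40 and 0.32 on the other.

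Transsulfuration drains homocysteine. Cbs encodes cystathionine beta-synthase, its first enzyme, and was read by 2 probe sets. On the brighter, the centred signal was 5161, 6429 and 5364 on the high-fat arrays, against 4688, 7958 and 5502 on the control arrays. On the other, it was 3021, 4038 and 3061 on the high-fat arrays, against 3373, 6319 and 3164 on the control arrays. Both had a lower high-fat array at week 4, by 0.31 and 0.65 on the log2 scale, but the brighter was at -0.09 with quantile normalization and at -0.02 once corrected by loess. Both lay within 0.05 of the control at week 10, where the brighter turned to 0.05 with quantile normalization and to 0.03 with loess. They disagreed in sign at week 2, at 0.14 and -0.16.

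Cth encodes cystathionine gamma-lyase, which cleaves cystathionine to cysteine. The centred signal of Cth was 12723, 9890.4 and 6193 on the high-fat arrays, against 15568, 23085 and 14595 on the control arrays. The high-fat array was lower at each week and below both control arrays of the smaller design at weeks 2 and 10. Log2 differences were -0.29, -1.22 and -1.24, and the mean was -0.92 with a standard error of 0.255 (limma adjusted p = 0.993). It was the 19th lowest mean difference of the 9636 probe sets above the floor on all arrays. At week 10 Cth was over 1.5-fold lower and neither Cbs probe set was, and that difference between the enzymes was not tested.

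**Figure D2:**
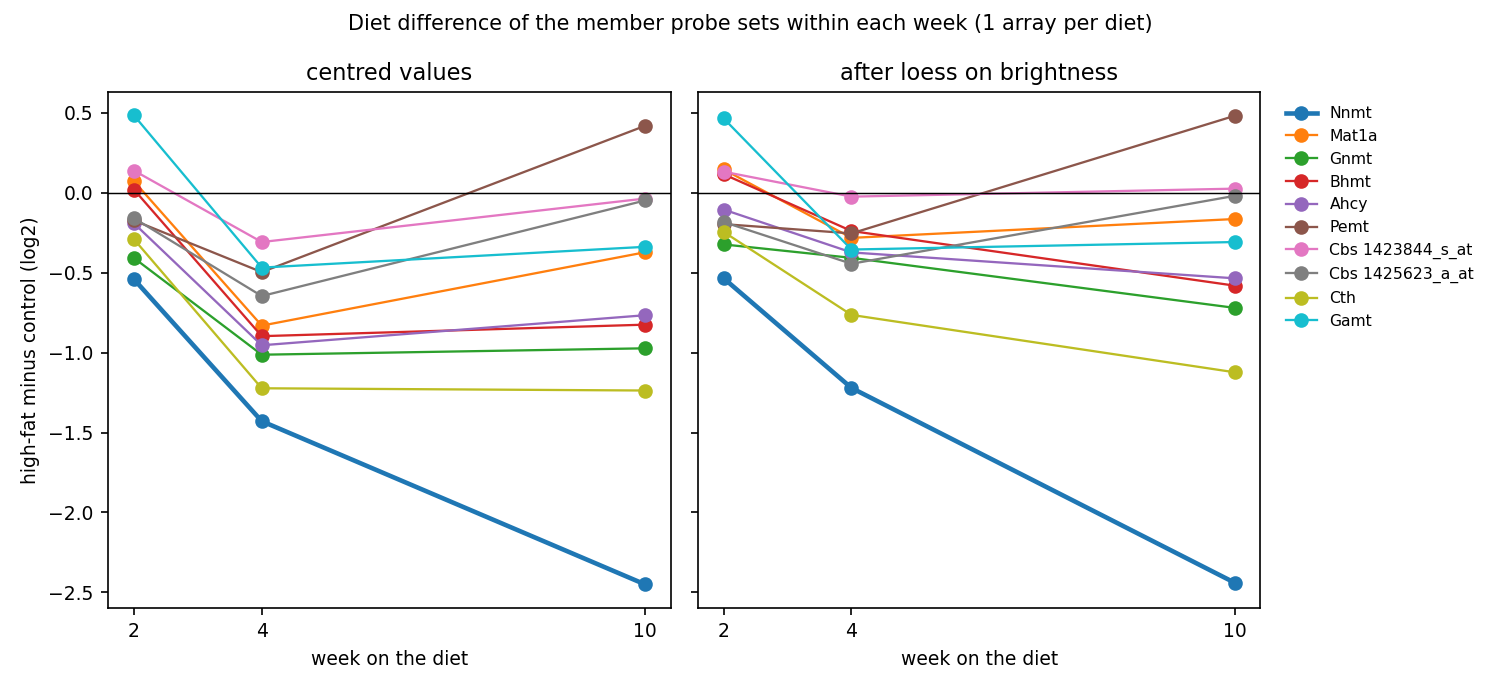
Lines join the log2 difference (high-fat minus control, 1 array per diet) of each of the 10 probe sets at weeks 2, 4 and 10, with centred values on the left and after a loess correction for brightness on the right. Nnmt runs from -0.54 to -2.45 on the left and stays lowest on the right, while the differences of Gnmt, Ahcy, Bhmt and Mat1a at week 4 shrink to between -0.41 and -0.24.

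Counted together, 6 of the 10 probe sets were lower on the high-fat array at week 2 (54% of all probe sets tested), 10 at week 4 (45.8%) and 9 at week 10 (47.8%). The number lower at both weeks 4 and 10 was 9, against 21.4% of all. Values under the floor were set to it, so probe sets under it on both arrays of a week count as not lower in these shares. No member was under it. At week 4 the share lower was 62.3% at mean levels of 11 to 12, 76.0% at 12 to 13, 95.5% at 13 to 14 and 99.5% above. Of the 10 member probe sets, 0 were at least 1.5-fold lower at week 2 (10.2% of all), 7 at week 4 (7.27%) and 5 at week 10 (13.6%). At week 4 the share that low was 68.3% at mean levels of 14 or more, where Mat1a, Gnmt, Bhmt and Ahcy lie. It was 21.3% at 13 to 14, the class of Cth, 8.56% at 12 to 13, that of Nnmt, and 7.14% at 11 to 12. None of the members was 1.5-fold higher at any week (7.38%, 4.46% and 14% of all). At least 2-fold lower were 0 at week 2 (2.17% of all), Nnmt, Cth and Gnmt at week 4 (1.05%) and Nnmt and Cth at week 10 (4.4%). The members 1.5-fold lower at both weeks 4 and 10 were Nnmt, Cth, Gnmt, Ahcy and Bhmt, 5 of 10 where the share of all probe sets was 0.956%. The same 5 had an unadjusted p under 0.05 with a lower mean in limma, against 2.33% of all probe sets with a lower mean and 4.03% in either direction. The number of members with such a p was 2 under quantile normalization, 3 after loess on brightness, 1 with no filter, 3 with no week block and 2 without week 4. The median of the member differences was -0.17, -0.86 and -0.57 at the 3 weeks, and that of all probe sets tested -0.04, 0.00 and 0.01. Because the members were chosen with earlier results of these data known, these counts and medians are descriptions.

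The brightness of the members bears on these counts. Mat1a, Gnmt, Bhmt and Ahcy are among the 208 probe sets with a mean level of 14 or more on the log2 scale. In that class the median difference was -0.12, -0.67 and -0.27 at weeks 2, 4 and 10, and 99.5% were lower on the high-fat array of week 4. At week 10, 15.4% of the class were at least 1.5-fold lower, near the share of all probe sets. At least 1.5-fold lower at both weeks 4 and 10 were 22 of them (10.6%), 3 of these being Gnmt, Bhmt and Ahcy. For Nnmt, the class with levels of 12 to 13 held 584 probe sets with medians of 0.01, -0.21 and -0.05, of which 9 (1.54%) were 1.5-fold lower at both weeks. For Cth, the class of 13 to 14 held 356 with medians of -0.03, -0.43 and -0.08 and 17 (4.78%) such probe sets.

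After the loess correction for brightness, Nnmt had -0.54, -1.22 and -2.44 and Cth -0.25, -0.76 and -1.12, and these 2 were the members still 1.5-fold lower at both weeks, where 0.647% of all probe sets were. Gnmt had -0.41 and -0.72 at weeks 4 and 10, Ahcy -0.37 and -0.54, Bhmt -0.24 and -0.58 and Mat1a -0.28 and -0.16. Under quantile normalization the week 10 differences of Gnmt, Ahcy and Bhmt were -0.44, -0.28 and -0.36. That setting also left 2 members at that fold, Nnmt at -1.25 and -2.50 and Cth at -0.92 and -1.02. Neither setting turned the sign of these 6 genes at week 4 or 10.

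**Figure D3:**
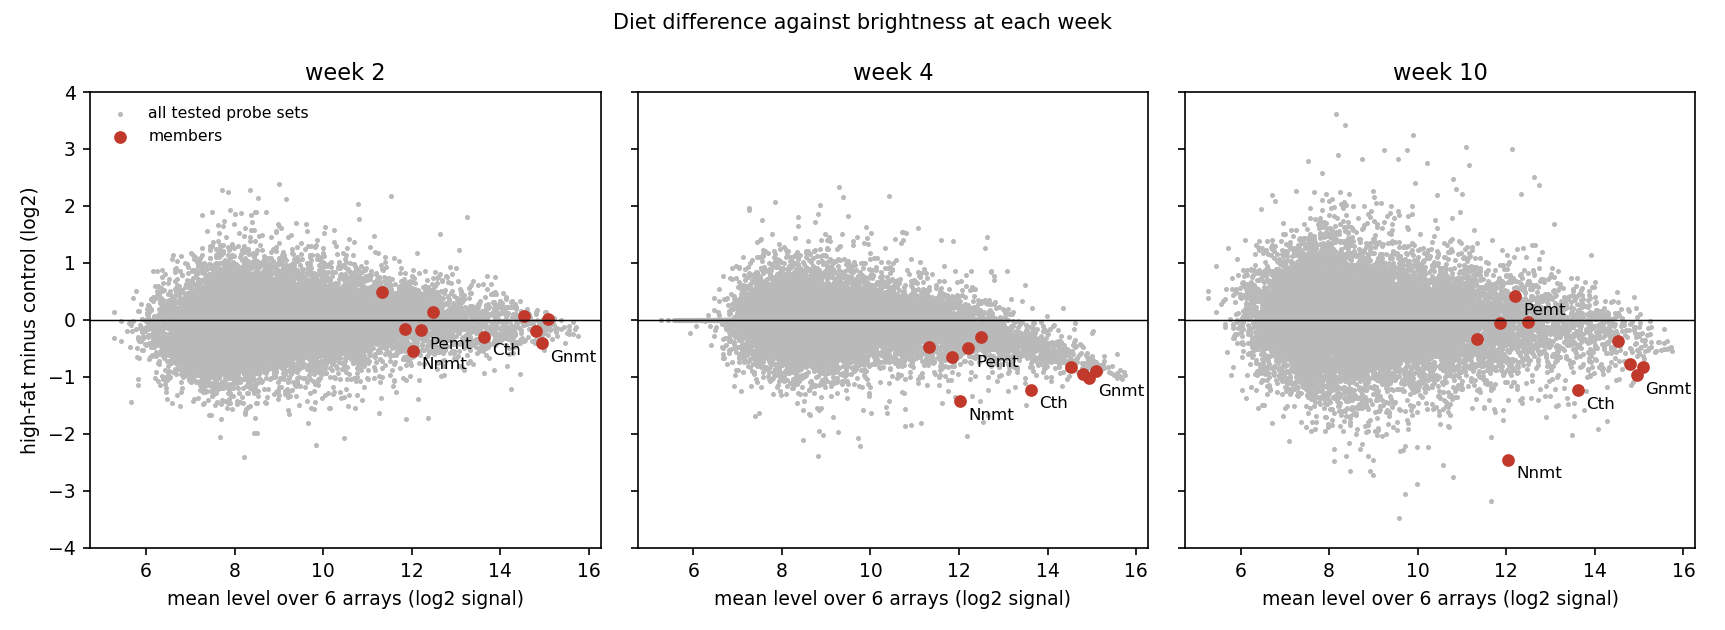
Each grey point is 1 of the 14533 probe sets tested, with its mean log2 signal over the 6 arrays on the x axis and its log2 difference (high-fat minus control) on the y axis, 1 panel per week, and red points are the 10 members. At week 4 the cloud bends below 0 at high signal, where Gnmt lies with it, while Nnmt lies below most probe sets of its brightness at weeks 4 and 10.

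Hepatocyte markers were measured beside the members. All 10 measured of 12 listed were tested, and their medians were -0.15, -0.84 and -0.48 at the 3 weeks, with Alb at -0.25, -1.03 and -0.51. Their summed signal was 332083, 242550.2 and 478059 on the high-fat arrays, against 375901, 442040.4 and 620836 on the control arrays. These markers are also bright, and the probe sets with a mean level of 14 or more had a median of -0.67 at week 4. In a whole liver lobe, fewer cells of a type, less RNA per cell and an effect of brightness cannot be told apart. Macrophage and Kupffer cell markers, 14 measured of 15 listed, had a summed signal of 23509, 38885 and 29827 on the high-fat arrays, against 26633, 38953 and 18054 on the control arrays. At week 10, 10 of the 14 were at least 1.5-fold higher (14% of all probe sets tested). At week 2, 11 of the 14 were lower (54% of all) and 4 were at least 1.5-fold lower (10.2%). Their part in the member differences was not tested.

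Signs of RNA quality and labelling also differed. For pyruvate carboxylase, the ratio of 3' to 5' signal came to 9.64, 7.78 and 2.39 on the high-fat arrays, against 3.82, 4.26 and 4.01 on the control arrays. High-fat thus had the larger ratio at weeks 2 and 4 and the smaller at week 10. The actin ratio had the same order with smaller gaps, at 1.61, 2.35 and 1.17 against 1.20, 2.15 and 1.73. The Gapdh ratio was 1.01, 0.81 and 0.83 on the high-fat arrays, against 0.78, 0.82 and 0.91 on the control arrays. The control array of week 10 had a bioD spike signal of 19736, against 4271 to 7858 on the other arrays. Whether either bears on the member differences was not tested.

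Other genes of the pathway were read from lists, with the brightest probe set standing for a gene. None of the 86 list genes tested passed the limma test over the 3 weeks. Over lists, the methionine cycle and remethylation genes had medians of 0.09, 0.00 and 0.06 at weeks 2, 4 and 10 (5 tested of 8 listed), where the 9 member genes had -0.17, -0.90 and -0.77 and all 8846 genes -0.03, 0.00 and 0.02. The lists were not matched to the members in brightness. Mtrr, which reactivates methionine synthase, had a mean difference of -0.20. It was under the floor on both arrays of week 4 and gave the median of 0.00 there. Ahcyl2, a relative of Ahcy, had a mean of 0.15. Genes of choline, betaine and glycine methyl donors had medians of 0.06, -0.28 and 0.06 (11 tested of 12). Sardh, which oxidises the sarcosine that Gnmt makes, had 0.14, -0.98 and -0.80 and a mean of -0.55, and its other probe set had 0.48, -1.06 and -0.73. Chka, a choline kinase, had a mean of 0.35 and Chkb, another, -0.15.

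Folate one-carbon enzymes had medians of 0.19, -0.37 and 0.07 (11 tested of 18). Fpgs, which adds glutamate to folates, had -0.29, -0.64 and -0.64 and a mean of -0.52. Mthfd2, a mitochondrial folate enzyme at the floor on some arrays, had a mean of 0.35, and Aldh1l1, a formyl-folate dehydrogenase, had 0.11, -1.004 and 0.07 with a mean of -0.27 on its brightest probe set and 0.41, -1.04 and 0.41 with a mean of -0.07 on the other. In the list of cysteine, taurine and glutathione synthesis, medians were -0.07, -0.20 and 0.13 (11 tested of 12). Ethe1, a mitochondrial sulfur dioxygenase, had -0.84, -1.24 and 0.15, Got1, an aspartate aminotransferase, 0.27, -1.11 and -0.91, and Csad, a taurine synthesis enzyme, -0.07, -0.64 and -0.58. At week 10 the difference of Cth, -1.24, was more negative than these 3, and that was not tested.

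Enzymes that make or use nicotinamide and NAD, the substrate side of Nnmt, had medians of -0.09, -0.16 and 0.05 (16 tested of 20). Nampt, the salvage enzyme that uses nicotinamide, had -0.38, 0.45 and 0.00, and was chosen after its values were seen. In the route from tryptophan, Afmid, a formamidase, had -1.13, -1.28 and -0.28 with a mean of -0.90. Its signal of 176 on the high-fat array of week 2 was near the floor of 155.3. Tdo2, a dioxygenase, had -0.37, -0.69 and -0.72 with a mean of -0.59 on its brightest probe set and a mean of -0.35 on the other. Nmnat3, an NAD synthesis enzyme, had a mean of -0.25, with signals of 172 to 288. None of these reached the 5.46-fold of Nnmt at week 10.

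Other small-molecule methyltransferases had medians of 0.10, 0.03 and 0.08 (8 tested of 12). Hnmt, which methylates histamine, was higher on high-fat at every one of the 3 weeks, with 0.66, 0.997 and 0.85 and a mean of 0.84 with a standard error of 0.215 (limma adjusted p = 0.993). Inmt, in the same enzyme family as Nnmt, had -0.11, -0.45 and -0.15. Pnmt, a further relative, was at the floor on 3 arrays and had 1.03, 0.00 and -0.35 with a mean of 0.23. Of these relatives of Nnmt, Inmt was thus lower on high-fat at each week by less than 1.5-fold, and Pnmt had differences of either sign.

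Protein, DNA and RNA methyltransferases had medians of -0.24, -0.05 and -0.04 (13 tested of 16), with means of -0.45 for Prmt1, an arginine methyltransferase, -0.28 for Prmt7, another, and 0.36 for Ehmt2, a histone lysine methyltransferase. Prmt7 was under the floor on the high-fat array of week 10, so its mean rests in part on the floor value. Polyamine synthesis and salvage genes had medians of -0.05, -0.09 and 0.15 (8 tested of 12). Sat1, a polyamine acetyltransferase, had a mean of 0.19, Smox, a spermine oxidase, -0.19, and Mtap, which recycles methylthioadenosine, 0.15 on its brightest and -0.35 to -0.15 on its 3 other probe sets. Of the creatine genes (3 tested of 4), Gatm, which makes the substrate of Gamt, had -0.03, 0.02 and -0.82, the creatine transporter Slc6a8 a mean of -0.25 and Ckb, a creatine kinase, 0.37. Gatm was under the floor on the control array of week 4.

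**Figure D4:**
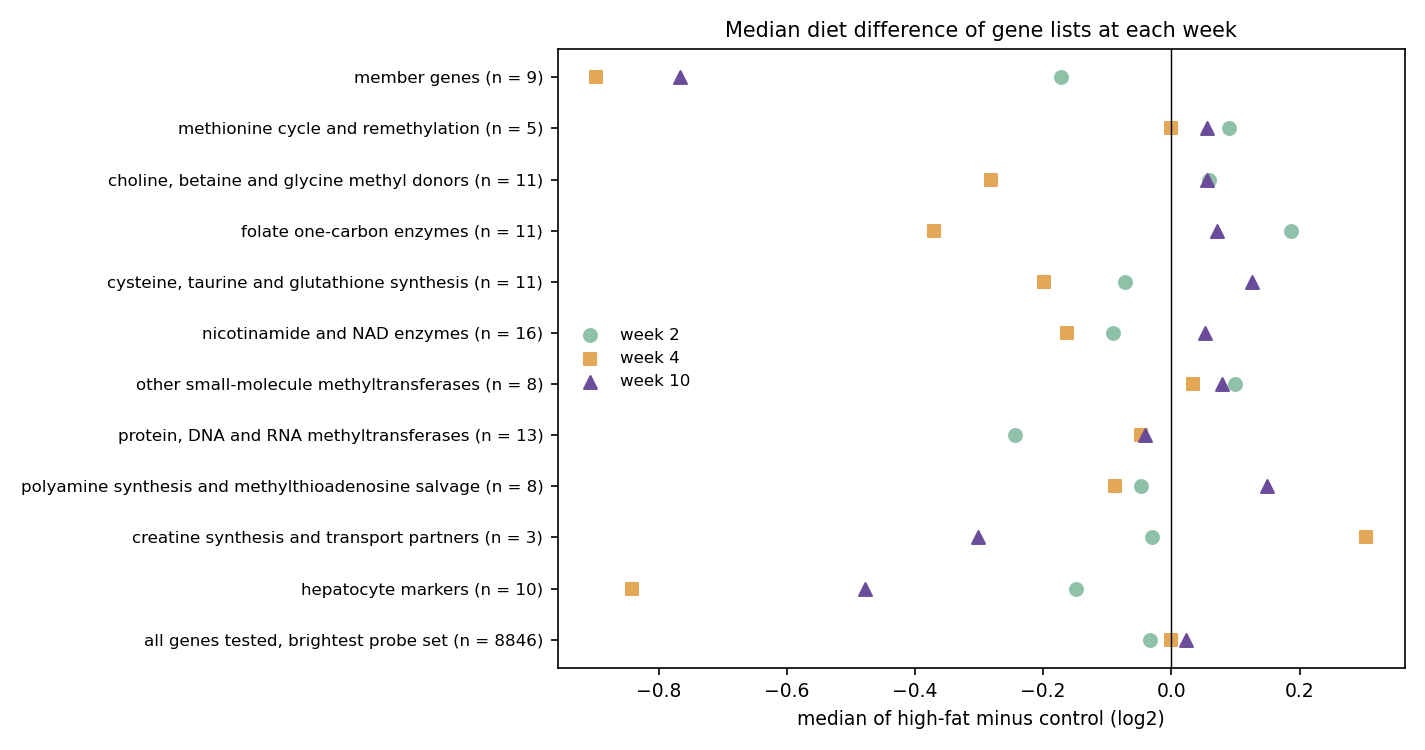
Points give the median log2 difference (high-fat minus control) over the tested genes of each list at weeks 2, 4 and 10, with the number of genes in brackets. The member genes lie at -0.17, -0.90 and -0.77, the hepatocyte markers at -0.15, -0.84 and -0.48, and the other lists of metabolic genes nearer to 0 at weeks 4 and 10. The lists were not matched in brightness.

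The genes whose pattern over the 3 weekly differences lay nearest to that of Nnmt, by Euclidean distance among 6050 other genes above the floor on all arrays, were Asl, G6pc, Dnajb12, Yrdc and Arntl. Asl, argininosuccinate lyase of the urea cycle, was nearest at a distance of 0.93, with 0.17, -1.01 and -2.02. G6pc, glucose-6-phosphatase, followed at 0.998 with -0.55, -1.49 and -1.45. Dnajb12 lay at 1.09, Yrdc at 1.15 and Arntl, a clock activator, at 1.16 with -1.30, -0.71 and -1.94. The likeness is over 3 values that share arrays, and is a description. The labels do not give the hour of collection, and its part in these differences was not tested.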

How the data were processed

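Liver RNA of 6 samples was measured on Affymetrix arrays, 1 per diet and week. The authors deposited 1 scaled intensity value per probe set on a linear scale, as read from the values (the mean without 2% at each end is 499.9 to 500.0 on 5 arrays and 799.9 on the control array of week 2). The sources used here do not name the processing software. No column of the tables was left unmapped.

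The 64 control probe sets were left out of the 22690 shared, which left 22626. Each array was centred on its median log2 intensity over 9922 probe sets, a floor was set at the 40th percentile (log2 7.28), and 14533 probe sets above it on at least 3 arrays were tested with limma 3.58.1 in R 4.3.3, blocking on week, and p-values were adjusted by Benjamini-Hochberg (threshold 0.05). That left 2 calls, both higher on high-fat. The weeks serve as replicates of the diet, and a single week has no test. The p-values and standard errors use the spread of the diet difference between weeks after limma drew it toward that of all probe sets. They are thus not the spread of a probe set's own 3 differences, which for Nnmt had a standard deviation of 0.96. The code was tested on simulated data. The number of arrays limits the precision.

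The genes named are all members, per pathway list up to 3 tested genes with the largest absolute mean difference and any that passed the test, and the 5 genes nearest to Nnmt over the 3 weekly differences. The members and lists were chosen with earlier results of these data known. Alternatives covered scaling, floor, filter, probe set choice, the week block, the variance model and each week left out. Promoter sequences are from RefSeq, build GRCm38.p6.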

Additional observations from a re-analysis of the deposited data

Results flagged for a closer look

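Pemt had opposite diet differences at neighbouring times, -0.50 at week 4 and 0.42 at week 10 on the log2 scale (high-fat minus control). Gamt was higher on high-fat at week 2, by 0.48, and lower at weeks 4 and 10, with -0.47 and -0.34. Each was picked out because the single pair of arrays differed by over 0.3 one way at one week and the other way at another, and the difference between weeks was not tested.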

How the results depend on the processing

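With 1 array per diet and week, only the 3 weeks together allow a test. Limma called 2 probe sets over the 3 weeks (586 at an unadjusted p under 0.05). It called 10 with the values as deposited (519 unadjusted), where the control array of week 2 keeps its larger scale and the median of all week 2 differences is -0.67. It called 1 with the brightest probe set per gene (361) or with trend and robust (598). It called 0 under quantile normalization (527), loess (548), a floor at the 20th (835) or 60th percentile (435), no filter (790), the mean of a gene's probe sets (375) or no week block (97). Leaving out 1 week each gave 9 calls without week 2 (682 unadjusted), 0 without week 4 (548) and 6 without week 10 (1298). Of the members, 0 were called (5 unadjusted), and 1, Nnmt, with the values as deposited and without week 2. Nnmt had -1.66 as deposited (adjusted p = 0.00743) and -1.94 without week 2 (adjusted p = 0.0104); its range over the 13 alternatives was -1.94 to -0.98, with adjusted p from 0.00743 to 1. At week 2 alone it had -1.21 as deposited. Small mean differences turned sign: Pemt was 0.0107 after loess and 0.12 without week 4, the brighter Cbs probe set 0.0261 under quantile normalization, 0.0445 after loess and 0.0511 without week 4, and Gamt 0.0728 without week 4 and 0.0079 without week 10. The causes of these shifts were not tested. The values as deposited leave out the centring of all 6 arrays, so the scale of week 2 was not changed alone. Mat1a, Gnmt, Ahcy, Bhmt and Cth had the same direction under all 13 alternatives, Mat1a at -0.60 to -0.04, Gnmt at -0.99 to -0.38, Ahcy at -0.86 to -0.24, Bhmt at -0.86 to -0.11 and Cth at -1.23 to -0.71, with the values nearest 0 of Mat1a, Gnmt, Ahcy and Bhmt under quantile normalization. The other Cbs probe set had it under the 12 that could be run for it, 1 of which averages both Cbs probe sets. The week block pairs the diets within each week.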

Other observations

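Pericentral hepatocyte markers, 8 tested of 8 listed, had median log2 differences of 0.03, -0.47 and -0.56 (high-fat minus control) at weeks 2, 4 and 10. Glul, glutamine synthetase of the cells around the central vein, had 0.91, -0.09 and -1.34. Oat, ornithine aminotransferase, had 0.45, -0.78 and -1.24. Others of the list went another way, with Lect2 at -0.64, -0.39 and 0.45 and Cyp1a2 at 0.19, -0.39 and 0.04. At week 10, 5 of the 8 were lower and 2 higher. Periportal markers, 5 tested of 8, had medians of -0.35, -0.70 and -0.21, with the urea cycle enzyme Arg1 at -0.35, -0.86 and -1.08. None of these passed the limma test over the 3 weeks, and these genes were chosen after their values were seen.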
